A study of Mus musculus with 4 samples.

Results

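Genes of the matrix metalloproteinases (MMPs), the ADAMTS proteases, the ADAMTS-like proteins and the tissue inhibitors of metalloproteinases (TIMPs) were examined in sorted mouse aortic smooth muscle cells (SMCs). Members were chosen by symbol alone, as every annotated row named Mmp, Adamts, Adamtsl or Timp with a number, and gave 50 genes of 32287 features: 22 MMP, 19 ADAMTS, 5 ADAMTS-like and 4 TIMP genes. Levels are counts of unique molecular identifiers (UMIs) summed over the kept cell barcodes of a group and scaled to a group total of 1000000 (CPM). A barcode was kept if it had 1000 or more detected genes and no more than 10% mitochondrial UMIs.

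All libraries came from mice 12 weeks old that carried Wnt1-Cre2, a Cre driver of the neural crest, and the mT/mG reporter. In these mice recombined cells and their descendants make membrane eGFP and the others membrane tdTomato. After a cold enzymatic digestion, viable cells positive for ITGA8, an integrin subunit of SMCs, were sorted, and RNA was counted from transcript 3′ ends. The libraries were Arch-GFP (GFP cells of the aortic arch, 8031 kept barcodes), Root (aortic root, 2960, with no reporter colour in its label), and Asc-GFP (6408) and Asc-RFP (4030), the GFP and the red cells of the ascending aorta. Root barcodes were therefore split by reporter UMIs into Root eGFP (576 barcodes with at least 8 eGFP and at most 1 tdTomato UMI) and Root tdTomato (1832 barcodes with at least 2 tdTomato and fewer than 8 eGFP UMIs). The other 552 Root barcodes fell in neither class. Each group was 1 library or a part of 1, with the number of animals not given, so no difference had a replicate check and no test was made. Intervals are 95% intervals of counting error only.

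Kept barcodes held 39691658 to 100987052 UMIs per library, with medians of 12628 to 13605 UMIs per barcode. Libraries shared 4 to 18 barcodes a pair, at most 0.347% of the smaller library. The SMC markers Acta2, Myh11 and 8 others summed to 46614 to 53883 CPM, so the sorted cells bore the markers of their label. Barcodes with 5 or more macrophage-marker UMIs made up 3.41% of Root, 1.44% of Asc-RFP, and 1 barcode each of Arch-GFP and Asc-GFP. Judged by Xist and Y-linked UMIs, female cells were 29.1% of the sexed cells of Arch-GFP, 88.2% of Root eGFP, 70.1% of Asc-GFP, 87.0% of Root tdTomato and 54.4% of Asc-RFP. The sex mix thus differed between groups that also differed in segment or reporter.

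MMPs and ADAMTS proteases are secreted or membrane-bound zinc enzymes that cut collagens, proteoglycans, fibrillin-associated proteins and other matrix components, and TIMPs block them by binding the active site. ADAMTS-like proteins have the binding domains of ADAMTS proteases without the catalytic domain, and several bind fibrillin microfibrils. In the wall of the aorta these proteins act on versican, aggrecan, elastic fibres and procollagens, and mice lacking some of them develop aortic disease.

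Of the 50 genes, 23 reached 5 CPM in any group: 7 of 22 MMPs, 8 of 19 ADAMTS proteases, 4 of 5 ADAMTS-like genes and 4 of 4 TIMPs. A further 8 lay between 1 and 5 CPM at their highest (Mmp9, Mmp12, Mmp13, Mmp15, Adamts4, Adamts12, Adamts14 and Adamtsl2), and 10 were detected below 1 CPM. The remaining 9 had no UMI in any library, which allows at most 0.0297 CPM in Arch-GFP, 0.0756 CPM in Root, 0.0357 CPM in Asc-GFP and, in Asc-RFP, 0.0556 CPM (3 UMIs of the total). They were Mmp1b, Mmp7, Mmp8, Mmp10, Mmp20, Mmp25, Adamts16, Adamts19 and Adamts20. Because 3′ counting depends on each transcript's end, levels are compared below between groups and not between genes.

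Most of the undetected MMPs sit together on the genome. On mm10 with GENCODE M21, 9 Mmp genes and no other protein-coding gene lay in chr9:7272514-7699585. Within this cluster only Mmp3 reached 5 CPM, Mmp12 and Mmp13 passed 1 CPM, Mmp27 had 1 UMI, and Mmp1b, Mmp7, Mmp8, Mmp10 and Mmp20 had 0. RefSeq promoter entries (build GRCm38.p6) matched 35 of the 50 members. The other 15 were Mmp2, Mmp9, Mmp16, Mmp17, Mmp19, Adamts4, Adamts5, Adamts6, Adamts7, Adamts8, Adamts10, Adamts15, Adamts16, Adamts19 and Adamtsl1. An exact AP-1 motif, TGANTCA, which is its own reverse complement, was searched in the 250 bases before each start. It occurred in 7 of these 35 members (20%) and in 6.75% of 32851 promoters of the same length. Members were counted per gene, with a match at any listed start, and the 32851 per promoter entry, so these shares differ in unit. All 7 belonged to the chromosome 9 cluster, where 7 of 9 genes held it, against 0 of the 26 other members. The CArG box, the site of serum response factor in SMC genes, was found in 0 of 35 members and in 1.47% of all promoters. The 100 bases before each start of the cluster are shown, since they differ in this motif while their genes differ in detection. They are written 5′ to 3′ on the gene's strand with the AP-1 match in capitals. Where RefSeq lists 2 starts (Mmp12 and Mmp7), the start with the match is shown.
Mmp13 chr9:7272414-7272513 (plus strand): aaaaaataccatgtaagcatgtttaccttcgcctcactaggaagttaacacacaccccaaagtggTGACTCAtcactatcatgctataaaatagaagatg
Mmp12 chr9:7347274-7347373 (plus strand): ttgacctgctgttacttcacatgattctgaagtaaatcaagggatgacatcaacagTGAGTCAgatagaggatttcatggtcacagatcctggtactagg
Mmp1b chr9:7388027-7388126 (minus strand): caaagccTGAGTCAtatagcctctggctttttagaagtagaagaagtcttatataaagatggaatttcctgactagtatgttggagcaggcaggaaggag
Mmp3 chr9:7445722-7445821 (plus strand): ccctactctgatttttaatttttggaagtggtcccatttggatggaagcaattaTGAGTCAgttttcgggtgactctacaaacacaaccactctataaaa
Mmp10 chr9:7502242-7502341 (plus strand): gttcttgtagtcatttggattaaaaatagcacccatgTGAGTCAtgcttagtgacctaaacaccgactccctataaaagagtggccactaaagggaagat
Mmp8 chr9:7558329-7558428 (plus strand): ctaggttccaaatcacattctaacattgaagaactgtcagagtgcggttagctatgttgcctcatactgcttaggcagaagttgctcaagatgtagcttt
Mmp27 chr9:7571296-7571395 (plus strand): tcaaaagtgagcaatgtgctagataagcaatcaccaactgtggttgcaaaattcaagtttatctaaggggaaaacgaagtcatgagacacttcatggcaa
Mmp20 chr9:7628131-7628230 (plus strand): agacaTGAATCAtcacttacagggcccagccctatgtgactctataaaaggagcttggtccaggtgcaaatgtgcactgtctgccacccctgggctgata
Mmp7 chr9:7691990-7692089 (plus strand): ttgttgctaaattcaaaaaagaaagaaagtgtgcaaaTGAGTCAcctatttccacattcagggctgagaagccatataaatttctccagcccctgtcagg

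In the printed sequences the match began 46 bases before the start of Mmp3, the member of the cluster with the most UMIs (1728 in all), and 63 bases before that of Mmp10, which had 0. Mmp8 and Mmp27 had no match in 250 bases and 0 and 1 UMI. A match is a run of letters and not a measured site.

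The inhibitors were detected in all groups. Timp3, which is held in the matrix and inhibits ADAMTS4, ADAMTS5 and several ADAM proteases, stood at 932 (926 to 938) CPM in Arch-GFP, 749 (729 to 768) in Root eGFP, 841 (835 to 848) in Asc-GFP, 739 (729 to 750.0) in Root tdTomato and 703 (696 to 709.9) in Asc-RFP. Timp2, which inhibits MMPs and with Mmp14 takes part in activating pro-Mmp2, stood at 445 (441 to 449) CPM in Arch-GFP, 336 (323 to 349) in Root eGFP, 383 (379 to 387) in Asc-GFP, 365 (358 to 373) in Root tdTomato and 420.4 (415 to 426) in Asc-RFP. Both were highest in Arch-GFP. Between Asc-GFP and Asc-RFP they ran in opposite directions, with log2 ratios of 0.26 (0.24 to 0.28) for Timp3 and -0.13 (-0.16 to -0.11) for Timp2. Timp4, an inhibitor first found in the heart, was at 26.0 (25.1 to 27.1) CPM in Arch-GFP, 19.2 (16.2 to 22.5) in Root eGFP, 22.7 (21.7 to 23.7) in Asc-GFP, 25.2 (23.3 to 27.2) in Root tdTomato and 14.3 (13.4 to 15.4) in Asc-RFP. Its lowest group was Asc-RFP. Timp1, an X-linked secreted inhibitor, was at 21.8 (20.9 to 22.7) CPM in Arch-GFP, 7.82 (5.97 to 10.1) in Root eGFP, 12.0 (11.2 to 12.7) in Asc-GFP, 9.41 (8.26 to 10.7) in Root tdTomato and 12.0 (11.05 to 12.9) in Asc-RFP, highest in Arch-GFP and lowest in the root.

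Timp1, Timp3 and Timp4 lie inside Syn1, Syn3 and Syn2 on the opposite strand. How the counting used strand was not stated in the labels or headers, so some of their reads could belong to the partner gene. Syn3 itself had 33.9 to 41.2 CPM, Syn2 3.35 to 3.77 CPM and Syn1 0.504 to 1.31 CPM over the libraries. The same limit holds for Mmp11 with Chchd10. Adamtsl1 overlaps Sh3gl2 on its own strand, which had 1.53 CPM in Arch-GFP against 0.0832 CPM in Asc-GFP.

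**Figure D1:**
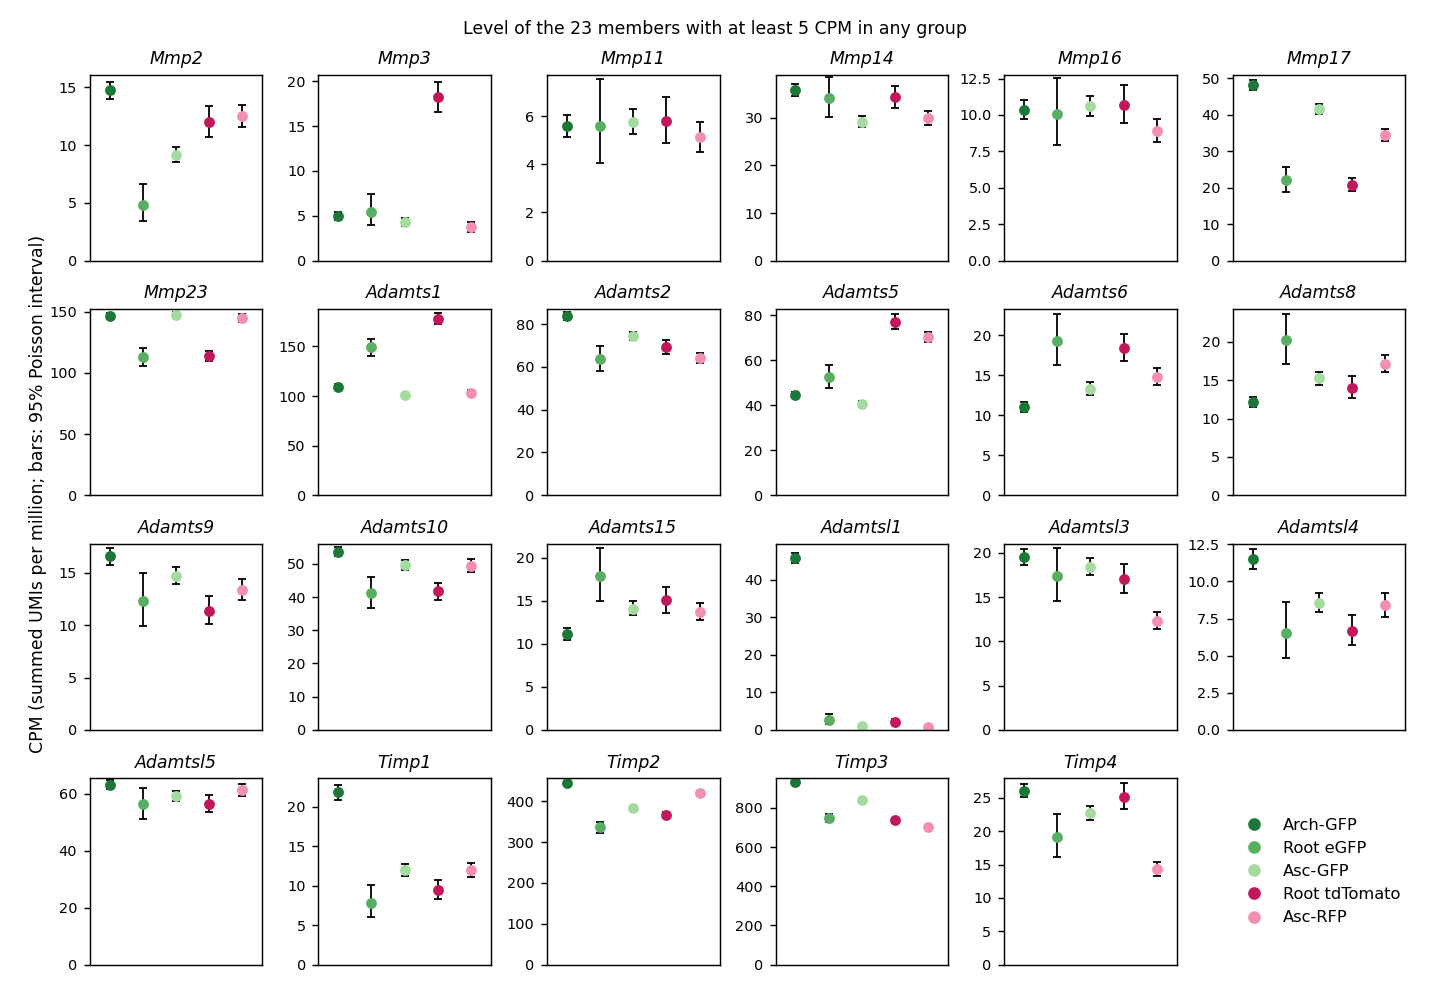
Levels (y axis, CPM, starting at 0, with 95% Poisson intervals) of the 23 genes with at least 5 CPM in any group, 1 panel a gene, with Arch-GFP, Root eGFP, Asc-GFP, Root tdTomato and Asc-RFP from left to right. Adamtsl1 stands at 46.0 CPM in Arch-GFP and under 3 CPM in the other groups, and Mmp3 at 18.2 CPM in Root tdTomato and under 6 CPM in the other groups.

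Among the proteoglycan-cleaving ADAMTS proteases, the root stood apart for Adamts1 and the tdTomato cells for Adamts5. Adamts1, which cleaves versican and aggrecan and whose reduction in mice leads to aortic dilation, stood at 109.5 (108 to 112) CPM in Arch-GFP, 149 (140.4 to 158) in Root eGFP, 101 (98.6 to 103) in Asc-GFP, 178 (173 to 183) in Root tdTomato and 103 (101 to 106) in Asc-RFP. The intervals of both Root groups lay above those of the other 3 groups. Adamts5, a versican and aggrecan protease needed for normal aortic development in mice, stood at 44.6 (43.3 to 45.9) CPM in Arch-GFP, 52.5 (47.5 to 57.9) in Root eGFP, 40.5 (39.1 to 41.8) in Asc-GFP, 77.2 (73.9 to 80.7) in Root tdTomato and 70.6 (68.3 to 72.8) in Asc-RFP. Root tdTomato and Asc-RFP were the highest and Asc-GFP the lowest. Adamts1 and Adamts5 are neighbours on chromosome 16, both on the minus strand and 53059 bases apart, and their orders of groups differed.

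Adamts8 and Adamts15, further members of the clade of proteoglycan-cleaving proteases, are neighbours on chromosome 9, on opposite strands and 20109 bases apart. Adamts8 stood at 12.1 (11.5 to 12.8) CPM in Arch-GFP, 20.2 (17.2 to 23.7) in Root eGFP, 15.3 (14.4 to 16.1) in Asc-GFP, 14.0 (12.6 to 15.6) in Root tdTomato and 17.1 (16.02 to 18.2) in Asc-RFP. Adamts15 was at 11.1 (10.5 to 11.8) CPM in Arch-GFP, 17.9 (15.0 to 21.1) in Root eGFP, 14.1 (13.3 to 15.0) in Asc-GFP, 15.1 (13.6 to 16.7) in Root tdTomato and 13.8 (12.8 to 14.8) in Asc-RFP. Both were highest in Root eGFP and lowest in Arch-GFP, but the interval of Root eGFP overlapped that of Asc-RFP for Adamts8 and that of Root tdTomato for Adamts15. Adamts9, another versican protease, was at 16.6 CPM in Arch-GFP, 12.3 in Root eGFP, 14.7 in Asc-GFP, 11.4 in Root tdTomato and 13.4 in Asc-RFP, and Adamts4, a related protease, at 3.38 CPM in Arch-GFP, 1.56 in Root eGFP, 0.939 in Asc-GFP, 1.13 in Root tdTomato and 1.13 in Asc-RFP. The order of Adamts9 was thus Arch-GFP, Asc-GFP, Asc-RFP, Root eGFP and Root tdTomato, and the last 3 had overlapping intervals.

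The procollagen N-proteinase Adamts2, which trims fibrillar procollagens, stood at 83.8 CPM in Arch-GFP, 63.8 in Root eGFP, 74.5 in Asc-GFP, 69.4 in Root tdTomato and 64.2 in Asc-RFP. Its relatives Adamts14 and Adamts3 stayed at most 1.07 and 0.855 CPM. Adamts10 and Adamts6, a pair of related proteases tied to fibrillin microfibrils, ran in opposite orders. Adamts10 was at 53.7 CPM in Arch-GFP, 41.2 in Root eGFP, 49.5 in Asc-GFP, 41.7 in Root tdTomato and 49.4 in Asc-RFP, lowest in the root groups. Adamts6 was at 11.1 CPM in Arch-GFP, 19.3 in Root eGFP, 13.3 in Asc-GFP, 18.5 in Root tdTomato and 14.8 in Asc-RFP, highest in the root groups. Adamts12, a protease of cartilage oligomeric matrix protein, was lowest in Arch-GFP at 1.30 CPM and reached 3.11 CPM in Root tdTomato.

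Adamtsl1, also called punctin, set the arch cells apart. It stood at 46.0 (44.6 to 47.3) CPM in Arch-GFP, 2.74 (1.69 to 4.19) in Root eGFP, 0.927 (0.733 to 1.16) in Asc-GFP, 2.18 (1.64 to 2.83) in Root tdTomato and 0.741 (0.530 to 1.01) in Asc-RFP. No other group reached 5 CPM. Adamtsl3, a close relative, was at 19.5 (18.6 to 20.4) CPM in Arch-GFP, 17.3 (14.5 to 20.5) in Root eGFP, 18.4 (17.5 to 19.4) in Asc-GFP, 17.1 (15.5 to 18.7) in Root tdTomato and 12.3 (11.4 to 13.3) in Asc-RFP, with Asc-RFP below the other groups. Adamtsl4, a fibrillin-binding protein mutated in human lens dislocation, was at 11.5 CPM in Arch-GFP, 6.52 in Root eGFP, 8.57 in Asc-GFP, 6.69 in Root tdTomato and 8.39 in Asc-RFP. Adamtsl5, also a microfibril-binding protein, was at 63.2 CPM in Arch-GFP, 56.5 in Root eGFP, 59.2 in Asc-GFP, 56.6 in Root tdTomato and 61.2 in Asc-RFP, a spread of less than 7 CPM. Adamtsl2, mutated in human geleophysic dysplasia, was at 0.891 CPM in Arch-GFP, 1.04 in Root eGFP, 0.357 in Asc-GFP, 2.02 in Root tdTomato and 0.334 in Asc-RFP.

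Among MMPs, Mmp17, a membrane-anchored MMP whose loss in mice alters aortic SMCs, was at 48.1 (46.7 to 49.4) CPM in Arch-GFP, 22.0 (18.8 to 25.6) in Root eGFP, 41.4 (40.1 to 42.8) in Asc-GFP, 20.8 (19.0 to 22.6) in Root tdTomato and 34.4 (32.8 to 36.0) in Asc-RFP. Both Root groups lay below the other groups. Mmp23, a membrane MMP with an unusual C-terminal region, was at 146 CPM in Arch-GFP, 113 in Root eGFP, 147 in Asc-GFP, 114 in Root tdTomato and 145 in Asc-RFP, again lower in the root. Mmp14, the membrane activator of pro-Mmp2, was at 35.8 CPM in Arch-GFP, 34.2 in Root eGFP, 29.2 in Asc-GFP, 34.3 in Root tdTomato and 30.0 in Asc-RFP. Mmp16, a related membrane MMP, lay between 8.90 and 10.7 CPM, and Mmp11, a stromelysin activated inside the cell, between 5.11 and 5.79 CPM. Neither showed group intervals that separated from all others. Mmp15, another membrane MMP, stayed between 1.30 and 2.15 CPM.

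Mmp2, the gelatinase activated by Mmp14, was at 14.7 (14.0 to 15.5) CPM in Arch-GFP, 4.82 (3.40 to 6.65) in Root eGFP, 9.19 (8.55 to 9.86) in Asc-GFP, 12.0 (10.7 to 13.4) in Root tdTomato and 12.5 (11.6 to 13.5) in Asc-RFP. Root eGFP was the lowest group, and its interval lay below those of the other groups. Mmp3, a stromelysin that cleaves proteoglycans and activates other pro-MMPs, was at 4.97 (4.55 to 5.43) CPM in Arch-GFP, 5.48 (3.95 to 7.40) in Root eGFP, 4.33 (3.89 to 4.80) in Asc-GFP, 18.2 (16.6 to 19.9) in Root tdTomato and 3.71 (3.21 to 4.26) in Asc-RFP. The interval of Root tdTomato alone lay clear of all others. Summed over each family, the CPM of MMPs came to 269 in Arch-GFP, 198 in Root eGFP, 252 in Asc-GFP, 224 in Root tdTomato and 245 in Asc-RFP. The TIMP sum was 1425 in Arch-GFP, 1112 in Root eGFP, 1259 in Asc-GFP, 1139 in Root tdTomato and 1149.5 in Asc-RFP. The ADAMTS-like sum was 141 in Arch-GFP, 84.1 in Root eGFP, 87.5 in Asc-GFP, 84.6 in Root tdTomato and 83.0 in Asc-RFP, of which Adamtsl1 made up 46.0 CPM in Arch-GFP.

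Arch-GFP and Asc-GFP, neural crest reporter cells of 2 segments, differed in 1 member by the 2-fold rule. A gene was called when its log2 ratio was at least 1 in size and it had at least 5 CPM in either group. Of 22 members at that level, 1 was called, Adamtsl1, with a log2 ratio of 5.63 (5.31 to 5.97), while 0.914% of 9733 genes were called in either direction and 0.771% as higher. At a size of at least 0.5 it was joined by Timp1 and Mmp2, 3 of 22 members, against 2.88% of all genes. Adamtsl1 entered the count only through Arch-GFP, where it is high. The median log2 ratio was 0.14 over the members and 0.03 over all genes, and 16 of 22 members were higher in Arch-GFP. No share of all genes higher in Arch-GFP stands beside this count, so it is not read as a result about the members.

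Next to Adamtsl1, the members furthest apart at 5 CPM were Timp1 at 0.87 (0.76 to 0.97) and Mmp2 at 0.68 (0.56 to 0.81), followed by Adamtsl4 at 0.42 (0.29 to 0.56). On the lower side were Adamts15 at -0.34 (-0.46 to -0.22), Adamts8 at -0.33 (-0.45 to -0.22) and Adamts6 at -0.27 (-0.39 to -0.15). Adamts4 was below 5 CPM in both and had a log2 ratio of 1.85 (1.49 to 2.22) from 341 UMIs in Arch-GFP and 79 in Asc-GFP. These libraries differed in sex mix. In female cells only, Timp1 had a ratio of 1.58 and Mmp2 0.86, and in male cells only 0.83 and 1.53. Fibroblast markers, 8 genes, summed to 216 CPM in Arch-GFP against 127 CPM in Asc-GFP, with 0 of the 3 at 5 CPM called, and their part in the ratios of Timp1 and Mmp2 was not tested. Adamtsl1 had 4.95 in female and 7.61 in male cells.

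Adamtsl1 was spread over many arch cells. In Arch-GFP, 1459 of 8031 barcodes held at least 1 of its 4641 UMIs, and 360 held 5 or more. With every barcode thinned to 4000 UMIs, 12.0% (11.2 to 12.7) of 7244 Arch-GFP barcodes had a UMI, against 0.294% (0.174 to 0.464) of 6125 Asc-GFP barcodes. Unthinned, the shares were 18.2% and 0.999%, at medians of 12628 and 12974 UMIs. Arch-GFP held 1 macrophage-marker and 19 endothelial-marker barcodes, too few to give a share of Adamtsl1 in other cell types. The part of free RNA in the Adamtsl1 shares was not tested.

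Within Arch-GFP, Adamtsl1 followed barcodes with a UMI of Dlx5, Dlx6, Tfap2b or Msx2, transcription factor genes of the cranial and pharyngeal neural crest, a set picked because earlier results of these data showed it. It was at 158 CPM in the 1986 barcodes with such a UMI and 7.90 CPM in the 6045 without, a log2 ratio of 4.32 (4.20 to 4.45). Adamts4 had 9.63 against 1.26 CPM, a log2 ratio of 2.93 (2.59 to 3.29), and Mmp2 29.3 against 9.82 CPM, a log2 ratio of 1.58 (1.43 to 1.72). These were the members called, 3 of 24, all higher, against 3.23% of 10004 genes called in either direction and 2.87% as higher. Adamts4 entered the count only through the barcodes with such a UMI. Timp1 did not differ between these sets beyond counting error, at 0.00 (-0.14 to 0.14). Adamts8 and Adamts5 were lower in the barcodes with such a UMI, at -0.74 (-0.97 to -0.53) and -0.53 (-0.63 to -0.42). In Asc-GFP, 279 barcodes had such a UMI, and there Adamtsl1 was at 4.63 against 0.716 CPM, a log2 ratio of 2.69 (1.90 to 3.44).

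**Figure D2:**
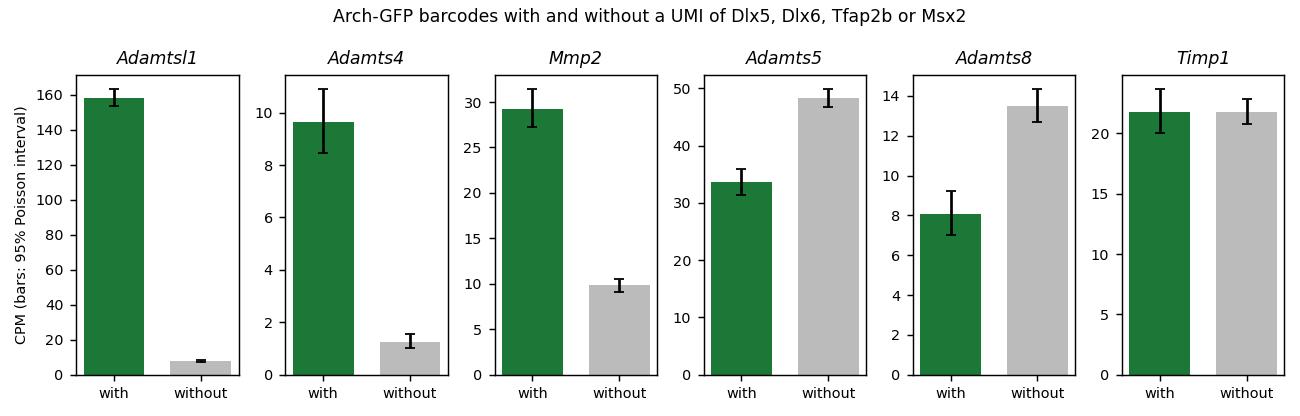
Levels (y axis, CPM, bars from 0 with 95% Poisson intervals) of 6 genes in the 1986 Arch-GFP barcodes with a UMI of Dlx5, Dlx6, Tfap2b or Msx2 (green, left) and the 6045 without (grey, right). Adamtsl1, Adamts4 and Mmp2 stand higher with such a UMI, Adamts5 and Adamts8 lower, and the intervals of Timp1 overlap.

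Asc-GFP and Asc-RFP, the crest reporter and the other cells of 1 segment, differed in 0 of 21 members by the 2-fold rule, where 1.28% of 9711 genes were called in either direction. Adamts5 came nearest, lower in Asc-GFP at -0.80 (-0.87 to -0.74). It was followed by Timp4 at 0.66 (0.54 to 0.78), Adamtsl3 at 0.58 (0.45 to 0.72) and Mmp2 at -0.45 (-0.60 to -0.30). Adamts1, Adamts10, Adamts15, Mmp14, Mmp23, Adamtsl4, Adamtsl5 and Timp1 had log2 ratios between -0.05 and 0.04, with intervals that included 0. At a size of at least 0.5, 3 of 21 members passed (Adamts5, Adamtsl3 and Timp4), against 3.58% of all genes. Fibroblast markers summed to 127 CPM in Asc-GFP against a sum of 265 in Asc-RFP, and their part in the lower Adamts5 and Mmp2 was not tested. In male cells only, Adamts5 was at -1.04 and so past the 2-fold line, and in female cells at -0.76.

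Root eGFP and Root tdTomato cells came from the same library and so shared its handling. By the 2-fold rule 2 of 22 members were called, both lower in Root eGFP, against 2.21% of 9855 genes in either direction and 1.91% on the lower side. They were Mmp2 at -1.32 (-1.85 to -0.82) and Mmp3 at -1.73 (-2.22 to -1.28). Mmp2 reached 5 CPM in Root tdTomato alone and so entered the count only through the group where it is high. Adamts5 was lower in Root eGFP at -0.56 (-0.71 to -0.40), as were Timp4 at -0.39 (-0.66 to -0.13) and Adamts1 at -0.26 (-0.35 to -0.16), and Adamts8 was higher at 0.53 (0.25 to 0.80). At a size of at least 0.5, Mmp2, Mmp3, Adamts5 and Adamts8 passed, 4 of 22, against 5.52% of all genes.

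The calls of Mmp2 and Mmp3 rested on different footings. With at most 2 UMIs of a gene counted per barcode, Mmp2 was at -1.12 and Mmp3, then below 5 CPM in both groups, was no longer counted. In barcodes below the median immediate-early share of all libraries, Mmp2 was at -0.36 and not called. In male cells only, 64 Root eGFP and 225 Root tdTomato barcodes, Mmp3 turned to 0.19. The 8 fibroblast markers were also lower in Root eGFP: they summed to 205 CPM in Root eGFP and 447 CPM in Root tdTomato. Of the 4 markers at 5 CPM, 2 were at least 2-fold lower in Root eGFP: Lum with 7.56 against 32.1 CPM and Dcn with 28.4 against 143 CPM. Dpt and Scara5 were at 0 in Root eGFP and Scara5 in Root tdTomato. The part of cells bearing these markers in the result was not tested.

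Across the 2 segments the reporter contrast ran the same way in some members and in opposite ways in others. Of the 23 genes, 12 had the same sign in the ascending aorta and in the root. In 5 genes both intervals lay clear of 0, and 3 of these had the same sign: Adamts5, Mmp2 and Timp2, all lower in the eGFP cells. The other 2, Adamts8 and Timp4, had opposite signs. Adamts8 was at -0.17 in the ascending aorta and 0.53 in the root, and Timp4 at 0.66 and -0.39. The root and ascending contrasts share no library. No share over all genes stands beside these counts, so they are not read as a result about the members.

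**Figure D3:**
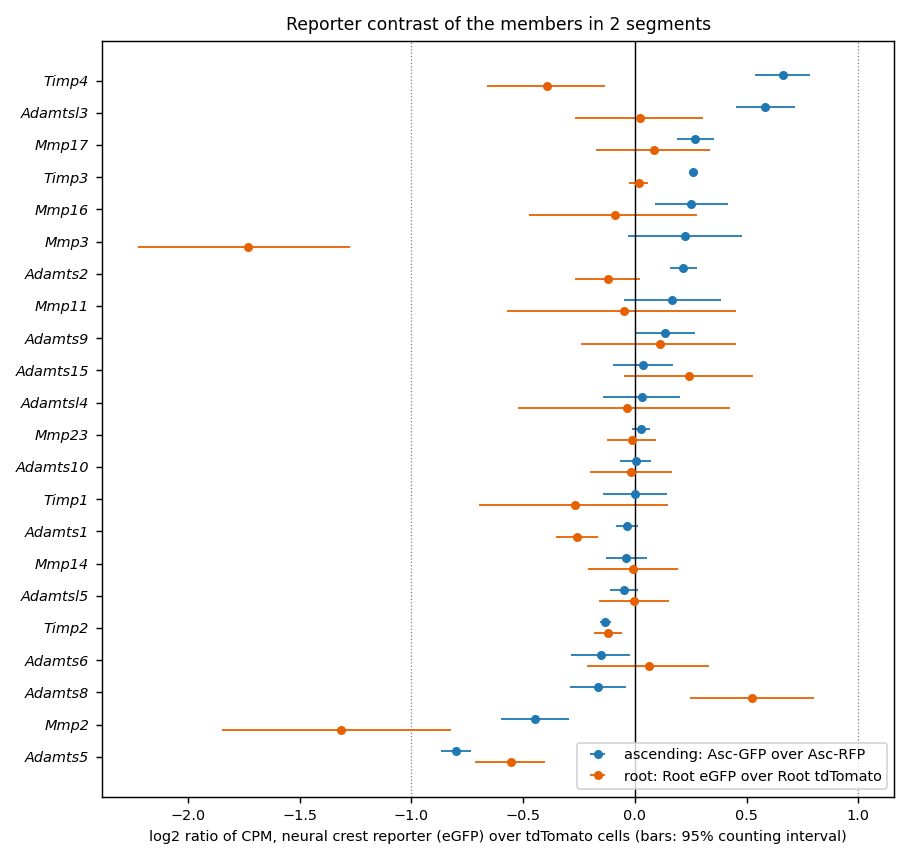
Log2 ratios of CPM (x axis, with 95% counting intervals and dotted lines at 2-fold) of eGFP over tdTomato cells for 22 genes, in the ascending aorta (blue, Asc-GFP over Asc-RFP) and in the root (orange, Root eGFP over Root tdTomato). Adamtsl1, under 5 CPM in these groups, is not drawn. Adamts5 and Mmp2 lie left of 0 in both segments, while Timp4 and Adamts8 lie on opposite sides of 0.

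Root tdTomato and Asc-RFP, tdTomato cells of 2 segments, differed in 1 of 22 members by the 2-fold rule, against 3% of 9888 genes in either direction and 2.13% as higher. It was Mmp3, higher in Root tdTomato at 2.30 (2.05 to 2.54), and it entered the count only through that group. At a size of at least 0.5, 4 of 22 members passed (Mmp3, Mmp17, Adamts1 and Timp4), against 8.18% of all genes. Below 2-fold, Timp4 was higher at 0.81 (0.66 to 0.96), Adamts1 at 0.79 (0.73 to 0.84) and Adamtsl3 at 0.47 (0.29 to 0.65). Mmp17 was lower at -0.73 (-0.87 to -0.59) and Mmp23 at -0.34 (-0.40 to -0.28). In male cells only, Timp4 was at -0.05 and Adamtsl3 at -0.17, from 225 male Root tdTomato and 1572 male Asc-RFP barcodes. Fibroblast markers summed to 447 CPM in Root tdTomato against 265 CPM in Asc-RFP, and their part in the Mmp3 call was not tested. Adamtsl2 was below 5 CPM in both, at 2.02 CPM in Root tdTomato against 0.334 CPM in Asc-RFP, a log2 ratio of 2.60 (1.80 to 3.46).

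Root eGFP and Asc-GFP, eGFP cells of 2 segments, differed in 0 of 22 members by the 2-fold rule, against 1.97% of 9745 genes in either direction. Mmp2 and Mmp17 came nearest, lower in Root eGFP at -0.93 (-1.45 to -0.45) and -0.91 (-1.14 to -0.69). Adamts1 was higher at 0.56 (0.47 to 0.65) and Adamts6 at 0.53 (0.28 to 0.78), and Timp1 was lower at -0.61 (-1.01 to -0.24). These 5 were the members at a size of at least 0.5, 5 of 22, against 7.79% of all genes. Mmp17, Mmp23, Adamts10, Timp1 and Timp2 were among the members lower in the root than in the ascending cells of both colours. Adamts1, Adamts6, Mmp14 and Adamts5 were among those higher. Others ran in opposite ways in tdTomato and eGFP cells, such as Adamts8 at -0.29 and 0.41 and Timp4 at 0.81 and -0.24. No share of all genes stands beside this list. In female cells only, Adamts5 in Root tdTomato over Asc-RFP was at -0.001, against 0.13 in all cells. In male cells only, the ratio of Adamts6 in Root tdTomato over Asc-RFP was -0.13, against 0.32 in all cells. Both comparisons share the Root library, whose immediate-early genes made up 0.424% of UMIs, against 0.292% in Arch-GFP, 0.303% in Asc-GFP and 0.322% in Asc-RFP.

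The UMIs of some members were concentrated in few barcodes. In Root, 107 of 2960 barcodes had any Mmp3 UMI, 10 of them held most of its 662 UMIs, and 1 barcode held 97. In Arch-GFP 7 barcodes held most of 502 UMIs, in Asc-GFP 19 of 364 and in Asc-RFP 7 of 200. The level of Mmp3 is therefore that of few cells. Counted per thinned barcode, 1.40% (0.607 to 2.74) of Root eGFP barcodes, 2.39% (1.74 to 3.21) of Root tdTomato and 0.636% (0.404 to 0.953) of Asc-RFP barcodes had a UMI, and 5.48% (4 of 73) of the macrophage-marker barcodes. Unthinned, these were 2.78%, 3.98%, 1.24% and 6.93%. No order of expression is read from these shares.

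Among members with at least 200 UMIs in a library, Timp1 was the next most concentrated. In Arch-GFP the 1% of barcodes with most Timp1 UMIs held 54.3% of its 2200 UMIs, and 1 barcode held 305. The same share was 40.0% in Root, 44.1% in Asc-GFP and 39.1% in Asc-RFP. With at most 2 UMIs counted per barcode, the Arch-GFP over Asc-GFP ratio of Timp1 was 0.49, against 0.87 with all UMIs. Timp3, by contrast, was spread widely, with 5.30% of UMIs in the top 1% of Arch-GFP barcodes and a UMI in 7908 of 8031.

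**Figure D4:**
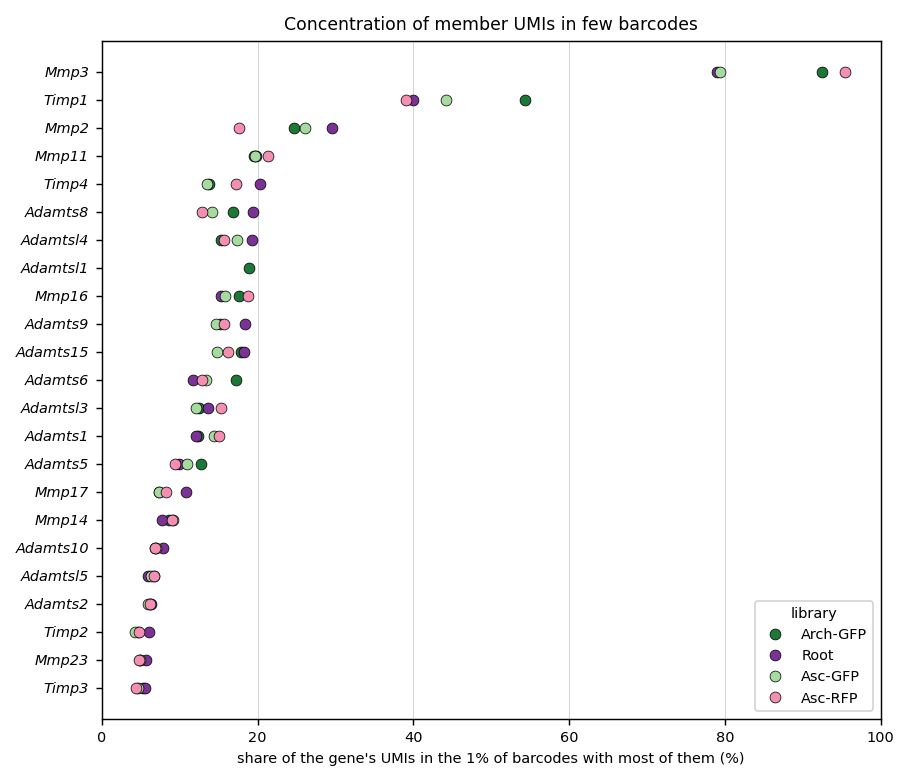
Share of a gene's UMIs (x axis, %) held by the 1% of a library's barcodes with most of them, 1 row a gene and 1 point a library, for genes with at least 200 UMIs in the library. Mmp3 lies at 79.0 to 95.5% and Timp1 at 39.1 to 54.3%, above the other genes, while Timp3 lies at 4.41 to 5.60%.

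In Root, 5 members were at least 2-fold higher in barcodes with a UMI of Lum, 1 of the 8 fibroblast markers. No other marker of that list was used, so these barcodes are not named as a cell type. Among Root barcodes with neither macrophage nor endothelial markers, 226 had a UMI of Lum, a small proteoglycan gene, and 2561 had none. Mmp2 was at 43.4 CPM with and 8.27 CPM without it, a log2 ratio of 2.39 (2.09 to 2.69). Mmp3 was at 61.6 against 12.6 CPM, a log2 ratio of 2.30 (2.05 to 2.54), and Adamtsl2 at 15.5 against 0.723 CPM, a log2 ratio of 4.42 (3.70 to 5.17). Timp1 had a ratio of 1.47 (1.09 to 1.82) and Adamts5 1.01 (0.86 to 1.15). Timp4 was lower with Lum, at -1.47 (-2.02 to -0.97). Below 2-fold, others differed in both directions. Timp2 was higher at 0.71 (0.63 to 0.78) and Adamts2 at 0.63 (0.46 to 0.80). Adamts9 was lower at -0.70 (-1.36 to -0.11) and Mmp17 at -0.69 (-1.16 to -0.26). Of the Mmp3 UMIs, 97 of 199 with Lum lay in 1 barcode, and without the barcode richest in Mmp3 of each set the ratio was 1.56 (1.23 to 1.88). In all, 6 of 23 members were called, 5 higher and 1 lower, against 2.99% of 9896 genes in either direction, 2.52% higher and 0.475% lower. Adamtsl2 entered the count only through the barcodes with Lum, and 1 barcode held 19 of its 83 UMIs in Root.

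Lum barcodes were fewer in the other libraries, 113 in Arch-GFP, 48 in Asc-GFP and 116 in Asc-RFP. Not all of these members differed there beyond counting error. Mmp2 had ratios of 2.24 in Arch-GFP, 1.37 in Asc-GFP and 1.25 in Asc-RFP, each with an interval above 0. Adamts5 had 0.96, 0.01 and 0.55 in the same order. Mmp3 was at 1.44 against 4.63 CPM in Arch-GFP, 0 against 4.39 CPM in Asc-GFP and 6.85 against 3.65 CPM in Asc-RFP. Its log2 interval included 0 in each of them. It ran from -4.74 to 0.17 in Arch-GFP, up to 0.20 in Asc-GFP and from -0.07 to 1.75 in Asc-RFP. Timp4 had 0.18, -0.61 and -0.59, with intervals that included 0. Adamtsl2 was under 5 CPM in both sets. In Arch-GFP it was at 4.31 against 0.847 CPM, a log2 ratio of 2.35 (0.86 to 3.53), and in Asc-GFP its interval included 0. Timp1 had 3.67, 0.89 and 2.18, but 1 barcode held 260 of the 333 Timp1 UMIs with Lum in Arch-GFP and 60 of 86 in Asc-RFP. Without the barcode richest in Timp1 of each set, its ratios were 1.81 (1.45 to 2.15) in Arch-GFP, 0.62 (-0.34 to 1.43) in Asc-GFP and 0.61 (-0.02 to 1.17) in Asc-RFP.

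Macrophage-marker barcodes carried other MMPs. In Root these barcodes also held SMC markers, at 22560 CPM against 46614 CPM in the whole library. The part of SMC RNA in their levels was not tested. In Root, Mmp12, the macrophage elastase, was at 32.7 CPM in the 101 such barcodes and 0 in the 2787 with neither marker, and all of its 34 UMIs lay in 5 barcodes. Mmp13, a collagenase, was at 36.5 against 0.0265 CPM. Mmp9, a gelatinase of leukocytes, was at 29.8 against 0.926 CPM in Root and 148 against 1.84 CPM in Asc-RFP. Timp2 was also higher in these barcodes, at 808 against 353 CPM in Root. Timp3 was lower, at 213 against 744 CPM. Of 25 members, 4 were called higher and 15 lower in macrophage-marker barcodes, against 34.7% of 10671 genes in either direction, 17.7% higher and 17% lower. Mmp9, Mmp12 and Mmp13 entered the count only through the macrophage-marker barcodes. Mmp11, Mmp16, Mmp17, Adamts6, Adamts9, Adamts15 and Adamtsl3, all called lower, entered it only through the barcodes with neither marker. Without macrophage- and endothelial-marker barcodes, the same members were called in all 5 comparisons.

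Adamts1 went with the immediate-early genes from cell to cell. Those 17 genes (Fos, Jun, Egr1 and others) are induced within minutes of a stimulus and also by tissue dissociation. Barcodes above the library's median share of immediate-early UMIs had more Adamts1 than those below it, with log2 ratios of 0.49 in Arch-GFP, 0.98 in Root, 0.76 in Asc-GFP and 0.90 in Asc-RFP. In Root these were 219 against 111 CPM. Of 21 members at 5 CPM in either set of each library, Adamts1 alone was at least 0.25 log2 higher in 4 of 4, where 1.56% of 9360 genes were. Timp1, Adamts10 and Adamts15 were at least 0.25 lower in 4 of 4, where 0.865% of genes were. Timp1 had ratios of -1.23 in Arch-GFP, -0.88 in Root, -0.87 in Asc-GFP and -0.40 in Asc-RFP, and without the barcode richest in Timp1 of each set -1.01, -0.76, -0.82 and -0.25 in that order. In Adamts15 they were -0.49 in Arch-GFP, -0.62 in Root, -0.33 in Asc-GFP and -0.64 in Asc-RFP. Beside the higher Adamts1 of the root groups stands the higher immediate-early share of Root. In barcodes below the median share over all libraries, Adamts1 was at 0.48 for Root tdTomato over Asc-RFP and 0.41 for Root eGFP over Asc-GFP.

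Some members differed between female and male cells within a library. Sex was read from Xist and 4 Y-linked genes, and the number of animals of each sex is not given, so sex and animal cannot be told apart. Mmp2, Mmp16 and Adamts6 were at least 0.25 log2 higher in female cells in 4 of 4 libraries, 3 of 22 members, where 1.7% of 9378 genes were. Mmp2 had ratios of 0.78 in Arch-GFP, 1.46 in Root, 1.45 in Asc-GFP and 0.98 in Asc-RFP. For Mmp16 they were 0.69 in Arch-GFP, 1.89 in Root, 0.58 in Asc-GFP and 0.55 in Asc-RFP, and for Adamts6 0.82 in Arch-GFP, 0.83 in Root, 0.84 in Asc-GFP and 0.49 in Asc-RFP. Adamts1 was higher in female cells in each library, by 0.21 in Arch-GFP, 0.30 in Root, 0.48 in Asc-GFP and 0.92 in Asc-RFP. Timp1 had 1.93 in Arch-GFP, -0.92 in Root, 1.19 in Asc-GFP and 0.68 in Asc-RFP. In Root, 1 barcode held 49 of the 82 male Timp1 UMIs, and without the richest barcode of each sex the ratio was 0.30 (-0.22 to 0.87). In Arch-GFP 1 female barcode held 305 of 999 UMIs, and the ratio was 1.48 (1.33 to 1.64) on the same footing. Root held 335 male barcodes, against 1572 or more in each other library. By the 2-fold rule, Arch-GFP had 1 of 23 members called between the sexes (Timp1), against 0.682% of genes in either direction. Root had 5 of 23 (4.96%), Asc-GFP 3 of 22 (0.424%) and Asc-RFP 1 of 22 (0.494%). Mmp2, Mmp16 and Adamtsl1 in Root, Mmp2 and Mmp3 in Asc-GFP and Mmp3 in Asc-RFP entered these counts only through the sex in which they were higher.

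**Figure D5:**
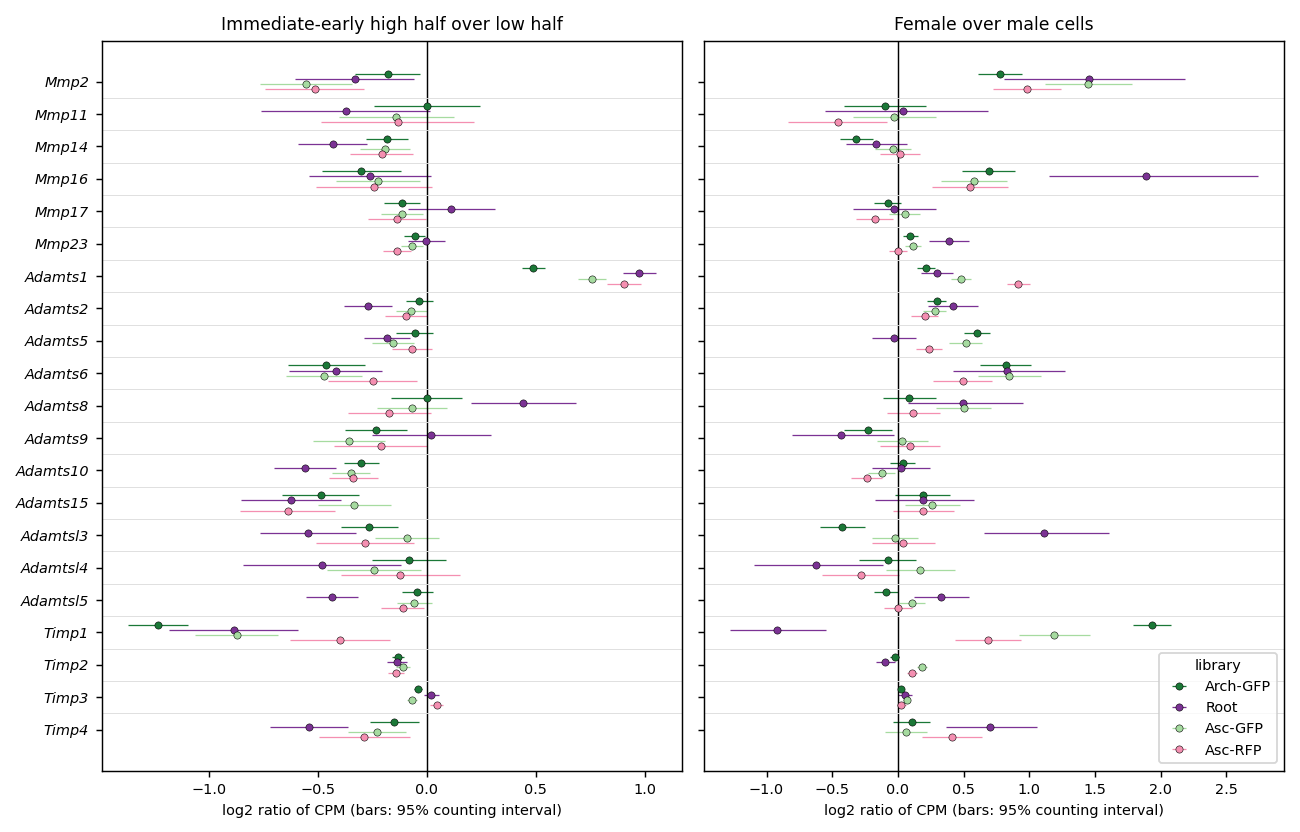
Log2 ratios of CPM (x axes, with 95% counting intervals) within each library for 21 genes, left for barcodes above over barcodes below the median immediate-early share and right for female over male cells, in Arch-GFP, Root, Asc-GFP and Asc-RFP from top to bottom in each row. Adamts1 lies right of 0 in 4 of 4 libraries on the left, Timp1 left of 0, and Mmp2, Mmp16 and Adamts6 right of 0 on the right. The Timp1 value left of 0 in Root on the right is the one that 1 male barcode sets.

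Other genes that bear on these proteases varied by comparison. Of a list of 10 genes, proteoglycans (among them the ADAMTS substrates versican and aggrecan), link proteins and the matrix glycoprotein Comp, 6 reached 5 CPM in Asc-GFP or Asc-RFP, and 2 were higher and 2 lower in Asc-GFP. Of all genes, 1.28% were called there in either direction. Acan, aggrecan, was at 44.0 against 14.4 CPM and Comp at 13.8 against 2.65 CPM, while Dcn, also a fibroblast marker, was at 16.1 against 59.0 CPM. Between Root tdTomato and Asc-RFP, 4 of 6 were higher: Lum, Comp, Acan and Dcn, with Acan at 35.0 against 14.4 CPM. Of all genes, 2.13% were called as higher there. Comp entered both counts only through the group where it was higher. Versican, Vcan, was at 128 CPM in Arch-GFP, 48.4 in Root eGFP, 90.0 in Asc-GFP, 63.2 in Root tdTomato and 91.6 in Asc-RFP. In the fibrillin and elastin list, the microfibril gene Mfap5 was lower in both Root groups, at 193 CPM in Root eGFP against 572 in Asc-GFP, and 186 CPM in Root tdTomato against 422 in Asc-RFP. Fbln1, a fibulin reported to act as a cofactor of Adamts1, was at 41.5 CPM in Arch-GFP against 2.15 CPM in Asc-GFP.

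Of the 10 ADAM proteases, 6 reached 5 CPM and none was called in any of the 5 comparisons. Of all genes, 0.914 to 3% were called in these comparisons in either direction. Among 13 genes that control proteases, 1 of 8 was called in Arch-GFP over Asc-GFP, Spock2, at 8.59 against 0.416 CPM, and none in the other comparisons. In Arch-GFP over Asc-GFP, 0.914% of all genes were called, and Spock2 entered the count only through Arch-GFP. Reck, a membrane inhibitor of MMPs, was at 25.2 CPM in Asc-GFP against 35.5 in Asc-RFP. In the plasminogen system, which activates several pro-MMPs, 2 of 4 genes were lower in Root tdTomato than in Asc-RFP: Plat, tissue plasminogen activator, at 23.5 against 51.7 CPM and Plaur at 2.37 against 5.97 CPM. Of all genes, 3% were called there in either direction, and Plaur entered the count only through Asc-RFP. In the list of 9 fibrillar collagen and processing genes, 1 of 8 was called in 1 comparison, Pcolce, lower in Asc-GFP than in Asc-RFP at 7.07 against 16.1 CPM. Of all genes, 1.28% were called in that comparison.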

How the data were processed

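The matrices deposited by the authors hold UMI counts as whole numbers for each gene and barcode. Cell Ranger 7.0.0 produced them, per the file headers, from 10x Genomics 3′ libraries, per the labels' protocols. The submitters' processing notes name the build mm10 and Seurat 4.3. Strand and intron settings of the counting were not given in the sources used here. The notes state 4040 cells for Root, 8845 for Asc-GFP, 6539 for Asc-RFP and 10506 for Arch-GFP before filtering, which are the deposited barcodes, and 1841, 4050, 2450 and 4710 after it. The filter used here kept 2960, 6408, 4030 and 8031. Doublets and free RNA were not removed: signs of both sexes (Xist and Y-linked UMIs) were found in 57, 607, 212 and 816 kept barcodes.

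UMIs were summed per group and divided by the group total. Levels have exact Poisson, ratios exact conditional binomial and shares exact Clopper-Pearson intervals at 95%. UMIs of cells are not replicates, so no test was made. Shares were computed after thinning each barcode to 4000 UMIs, which left out 787 Arch-GFP, 5 Root eGFP, 283 Asc-GFP, 35 Root tdTomato and 415 Asc-RFP barcodes. Female cells had a Xist UMI and none of 4 Y-linked genes, male cells the converse. The interval code was tested on simulated data (Python 3.11.15, numpy 2.4.6, scipy 1.17.1, pandas 2.3.3).

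Members with at least 5 CPM in any group were named with their levels, and those over 1 CPM were named. From each gene list up to 4 genes with the largest ratios could be named, and Vcan and Reck were given for their known roles, chosen after their values were seen. The members and lists were chosen with earlier results of these data known. Alternatives changed the barcode filter, the thresholds, the scaling, the reporter classes, and the sex, immediate-early share or marker content of the barcodes.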

Additional observations from a re-analysis of the deposited data

Results flagged for a closer look

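2 members had reporter contrasts of opposite sign in the root and in the ascending aorta, each with both counting intervals clear of 0. For Adamts8 the log2 ratio of eGFP over tdTomato cells was 0.53 in the root and -0.17 in the ascending aorta, a difference of 0.69. For Timp4 it was -0.39 in the root and 0.66 in the ascending aorta, a difference of -1.06. With 1 library per group neither difference was tested, and no share of all genes with opposite signs stands beside this count. In male cells only, Timp4 was at 1.11 in the root (64 Root eGFP and 225 Root tdTomato barcodes) and 0.83 in the ascending aorta. Adamts8 was then at 0.74 and -0.49.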

How the results depend on the processing

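The counts of members at least 2-fold apart were 1 (Arch-GFP over Asc-GFP), 0 (Asc-GFP over Asc-RFP), 2 (Root eGFP over Root tdTomato), 1 (Root tdTomato over Asc-RFP) and 0 (Root eGFP over Asc-GFP). In this order, they became 3, 2, 6, 5 and 3 with no CPM filter (at least 3 UMIs in either group), 3, 3, 4, 4 and 5 at a log2 size of 0.5, and 3, 1, 5, 2 and 8 in male cells. In the same order, the shares of all genes were 10.1, 11.7, 11.7, 13.2 and 17.6% with no CPM filter, where 34 to 36 members were counted, and 1.09, 1.3, 11.8, 7.42 and 11.9% in male cells, where 21 to 23 were. At a log2 size of 0.5 they were 2.88, 3.58, 5.52, 8.18 and 7.79%, of 21 to 22 members. A minimum of 20 CPM gave 0 for both Root eGFP over Root tdTomato and Root tdTomato over Asc-RFP. The shares of all genes were then 1 and 1.75%. For Arch-GFP over Asc-GFP, female cells gave 2, a filter of 2000 genes and 5% mitochondrial UMIs gave 2, and barcodes below the median immediate-early share of all libraries gave 2, Timp1 joining Adamtsl1 each time. Of all genes, 1.1, 1.19 and 0.865% were called in that order. Barcodes below that median share gave 1 for Root eGFP over Root tdTomato (Mmp3), 2 for Root tdTomato over Asc-RFP (Mmp3 and Timp4) and 1 for Root eGFP over Asc-GFP (Mmp17). The shares of all genes there were 2.37, 3.24 and 3.12%. For Root eGFP over Asc-GFP, the stricter barcode filter gave 2, and female cells, thinned barcodes and stricter reporter classes gave 1 each (Mmp2). Of all genes, 2.3, 1.59, 2.84 and 2% were called in that order. With at most 2 UMIs of a gene counted per barcode, an alternative added after seeing the data, Root eGFP over Root tdTomato gave 1 (Mmp2) and Root tdTomato over Asc-RFP 0. The shares of all genes were 0.812 and 1.79%. The causes were not tested. The other counts stayed within 1.5 times, also without barcodes bearing UMIs of both sexes, which was likewise added. Leaving out the barcode richest in a gene from each set within a library, also added, turned Timp1 between the sexes in Root to 0.30 from its value of -0.92. Of 1537 member ratios under an alternative, 1306 stayed within the counting interval of the main value, 230 moved, and 1 changed the sign of a called value: Mmp3 in Root eGFP over Root tdTomato, at 0.19 in male cells, against -1.73. Median-of-ratios scaling shifted log2 ratios by at most 0.02. No paired analysis was possible because each group was 1 library without replicate numbers, so no replicate could be left out either. Root eGFP, with 7670195 UMIs, was the shallowest group and limits the contrasts that use it.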

Other observations

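Adamtsl1 had 86 UMIs in Root and differed there between the sexes: it was at 0.792 CPM in female and 9.42 CPM in male cells, a log2 ratio of -3.57 (-4.33 to -2.84). In Arch-GFP these were 39.1 and 46.9 CPM. The direction was the opposite in both ascending libraries, from few UMIs. Female and male cells were at 1.26 and 0.240 CPM in Asc-GFP, a log2 ratio of 2.40 (1.10 to 4.07). They were at 1.16 and 0.460 CPM in Asc-RFP, a log2 ratio of 1.33 (0.26 to 2.53). In Asc-RFP, 35.1 CPM were found in the 24 endothelial-marker barcodes and 0.526 CPM in those with neither marker. The library held 40 UMIs of the gene, 9 of them in 1 barcode. The same sets were at 1.17 and 2.25 CPM in Root and 2.01 and 0.921 CPM in Asc-GFP, with log2 intervals that included 0. Timp1 in Arch-GFP was at 239 CPM in the 113 barcodes with a Lum UMI and 18.8 CPM in the 7898 without, where 1 barcode of the first set held 260 of its 333 UMIs.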
